A study of Mus musculus with 8 samples.

Results

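The glutathione peroxidase genes Gpx1, Gpx3, Gpx4, Gpx7 and Gpx8 were examined for trimethylation of lysine 4 of histone H3 (H3K4me3), a mark found mainly at the start sites of active genes. All peaks that the H3K4me3 peak table assigns to these 5 genes were taken, without regard to their values. The genes themselves were chosen with earlier results of these data known. Each gene had exactly 1 listed peak, which gave 5 of 35486 listed peaks and 5 of 20871 genes. All 5 peaks were annotated as lying within 1 kb of a start site, as were 17073 of the listed peaks.

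CUT&Tag for H3K4me3 was done on tumor cells sorted as CD45-CD31-EpCAM+ from the lungs of 2 groups of mice. KL mice are Lkb1fl/fl, so that Cre deletes Lkb1 (symbol Stk11). KLG4m/m mice share the KL genotype and carry in addition a modified Gpx4 allele on both chromosomes, in which the 3′ part of the gene lies between rox sites. A cassette placed at that locus encodes the tamoxifen-dependent recombinase DreERT2 under the CAG promoter, behind a stop that Cre removes, so that tamoxifen deletes the rox-flanked exons in cells that received Cre. Both groups were given adenoviral Cre intranasally and tamoxifen, and the cells were taken 10 weeks after Cre. The mice were 8 to 10 weeks old when Cre was given. The comparison asks how H3K4me3 at these genes differs when Gpx4 is deleted in established Lkb1-null lung tumors. It used 2 KL libraries (replicates 1 and 2) and 2 KLG4m/m libraries (replicates 3 and 4).

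The libraries held 3244495 to 3463731 reads in listed peaks, with a median of 43 to 47 reads per peak. Counts of the 2 libraries of a group differed by 1.13 (KL) and 1.23 (KLG4m/m) chi-square units per degree of freedom, against 2.37 to 2.80 between libraries of different groups. The protocol took 1000000 cells from each mouse. The sources give 2 mice per group for these libraries in one place and 3 mice in total in another, so if any libraries share a mouse the p-values measure a spread that is in part technical. The sorted cells were checked against marker genes. Epcam, Cdh1, Krt8, Krt18 and Nkx2-1 all had listed peaks, while Sftpc, which encodes surfactant protein C, had none. The leukocyte genes Ptprc, Cd3e, Csf1r and Itgam also had listed peaks although the cells were gated as CD45-, and so did 3 of 3 endothelial and 2 of 3 fibroblast markers.

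Glutathione peroxidases reduce peroxides to water or alcohols, most of them with glutathione as the electron donor. GPX1 acts on hydrogen peroxide and small soluble peroxides in the cytosol and mitochondria, GPX3 is secreted and is the main form in plasma, and GPX4 reduces phospholipid hydroperoxides within membranes and thereby restrains ferroptosis, an iron-dependent death driven by lipid peroxidation. These 3 enzymes carry selenocysteine in the active site. GPX7 and GPX8 carry cysteine instead and reside in the endoplasmic reticulum, where they take part in oxidative protein folding.

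The sequences around the start sites are shown because each peak lies at or beside a start site. They are RefSeq windows of GRCm38.p6 and run from 250 bases before to 50 bases after the start, 5′ to 3′ on the strand of the gene. A window was found for 5 of 5 genes, and Gpx4 had several, at different starts. Those of Gpx4, Gpx1, Gpx7 and Gpx3 whose start gives the same transcript span as the start used in the peak table are printed. Capitals mark GGGCGG (the GC box) and CCAAT (the CCAAT box) on either strand, so that the reverse complements CCGCCC and ATTGG are also in capitals. Counted from the start site, the peak covers 249 of the 300 bases at Gpx4, 124 at Gpx1, 65 at Gpx3 and 37 at Gpx7, so that most of the Gpx1, Gpx3 and Gpx7 windows lies outside the peak.

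Gpx4, chr10:80053315-80053614, + strand: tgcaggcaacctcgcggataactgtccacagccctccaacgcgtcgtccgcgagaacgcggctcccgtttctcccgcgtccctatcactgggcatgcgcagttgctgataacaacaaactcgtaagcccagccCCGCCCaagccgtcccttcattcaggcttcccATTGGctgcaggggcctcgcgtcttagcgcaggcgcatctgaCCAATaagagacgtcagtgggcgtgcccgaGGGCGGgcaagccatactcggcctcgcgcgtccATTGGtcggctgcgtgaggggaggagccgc
Gpx1, chr9:108338830-108339129, + strand: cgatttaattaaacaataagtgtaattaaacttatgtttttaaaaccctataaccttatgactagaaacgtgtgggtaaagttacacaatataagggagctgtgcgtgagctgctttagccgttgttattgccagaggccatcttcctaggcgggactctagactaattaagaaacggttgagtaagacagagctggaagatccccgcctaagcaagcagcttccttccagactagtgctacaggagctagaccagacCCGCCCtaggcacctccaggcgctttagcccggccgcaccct
Gpx7, chr4:108406664-108406963, - strand: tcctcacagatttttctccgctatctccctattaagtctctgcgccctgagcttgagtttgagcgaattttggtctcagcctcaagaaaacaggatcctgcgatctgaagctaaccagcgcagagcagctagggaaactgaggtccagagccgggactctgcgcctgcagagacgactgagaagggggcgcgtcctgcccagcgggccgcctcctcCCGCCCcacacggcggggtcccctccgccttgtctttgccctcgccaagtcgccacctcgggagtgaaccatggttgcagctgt
Gpx3, chr11:54902604-54902903, + strand: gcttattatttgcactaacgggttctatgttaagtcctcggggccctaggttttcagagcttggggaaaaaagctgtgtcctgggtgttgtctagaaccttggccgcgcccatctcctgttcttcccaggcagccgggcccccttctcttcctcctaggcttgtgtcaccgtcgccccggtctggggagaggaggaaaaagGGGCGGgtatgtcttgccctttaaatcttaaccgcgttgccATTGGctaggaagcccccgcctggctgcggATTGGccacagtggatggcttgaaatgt

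The printed Gpx4 window was the richest of the 4 in CpG dinucleotides, the sequence context in which H3K4me3 is usually found. It held 31 CpG and 64.3% G or C, more CpG than 89.4% of the 32851 windows in the table, whose medians were 7 CpG and 52.7%. The Gpx4 windows at other starts held 3, 26 and 29 CpG. The Gpx7 window held 19 CpG, that of Gpx3 13 and that of Gpx1 11. The Gpx8 window also held 13, and its RefSeq start lies 26 bases from the start used in the peak table.

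Short promoter motifs were most numerous in the printed Gpx4 window among those printed. Counted from the start site at 0, its GC boxes began at -117 and -13 and its CCAAT boxes at -85, -43 and 20. The windows of Gpx1, Gpx3 and Gpx7 each held 1 GC box, at 8, -49 and -34, and that of Gpx3 also held CCAAT boxes at -8 and 22. The Gpx8 window held none of the motifs searched. GGGCGG was present in 35.7% and CCAAT in 37.4% of all windows. TGACNNNGC, the core of the antioxidant response element, and TATAAA were in none of these 5 windows, against 12.4% and 13.6% of all windows. The motifs did not overlap one another in the printed windows.

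The 5 start-site peaks spanned a 10.9-fold range of mean H3K4me3 in KL tumor cells. Levels are in CPM (counts per 1000000 reads in listed peaks, TMM-scaled). They need no correction for width, because 35485 of the 35486 listed peaks, the 5 members included, are 400 bp wide. The peaks sit differently around the start, since that of Gpx4 begins 199 bp before it and that of Gpx7 13 bp after it. The order of genes is thus one of reads in these peaks, not corrected for their placement. Positions of peaks below are those of the peak table. The methods name an Ensembl release 94 mouse genome, but the positions are not those of GRCm38, the assembly of that release, so the build of the table is not settled. The order was Gpx1, Gpx4, Gpx7, Gpx3 and Gpx8, with means of 98.4, 68.8, 33.7, 15.98 and 9.07 CPM. At each step the KL libraries of the neighbours did not overlap. Over all 4 libraries, neighbours overlapped at both ends of the order, since the lowest Gpx1 value (91.6 CPM) was below the highest Gpx4 value (93.2 CPM) and the lowest Gpx3 value (9.60 CPM) was below the highest Gpx8 value (10.8 CPM). Among start-site peaks, the mean level of Gpx1 over the 4 libraries exceeded 93.7% of peaks, that of Gpx4 83.9%, Gpx7 40.5%, Gpx3 23.7% and Gpx8 16.03%.

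**Figure D1:**
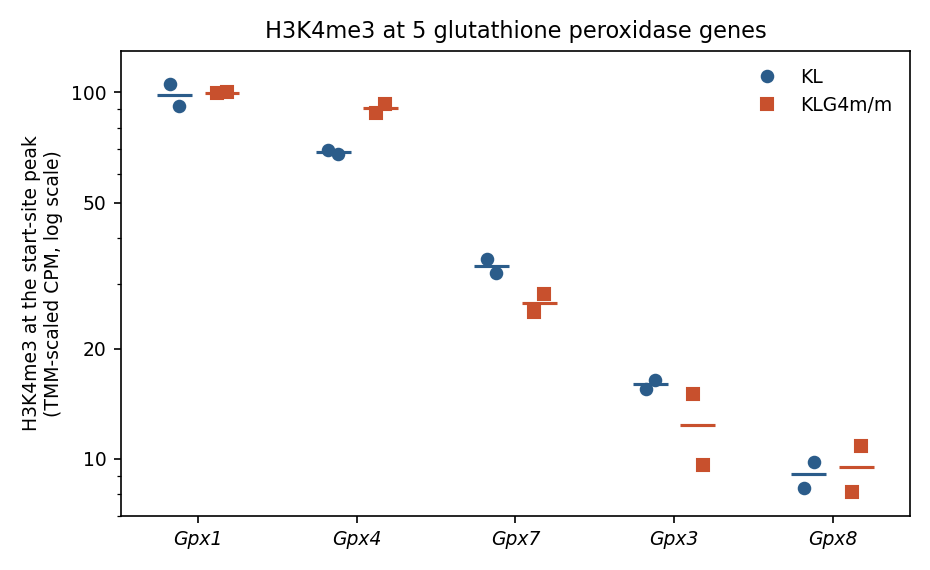
H3K4me3 at the start-site peak of each gene in TMM-scaled CPM on a log scale, with circles for the 2 KL libraries, squares for the 2 KLG4m/m libraries and a line at each mean. The Gpx4 values are 69.6 and 68.0 in KL and 88.2 and 93.2 in KLG4m/m, while the values of the 2 groups cross at Gpx1 and Gpx8.

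H3K4me3 was higher at Gpx4 in KLG4m/m than in KL tumor cells. The peak (chromosome 10, 79889200 to 79889600) runs from 199 bp before to 201 bp after the start of transcript NM_008162.4 and ends 2673 bp before the end of the gene. The reads numbered 242 and 236 in KL and 304 and 301 in KLG4m/m libraries. Both KLG4m/m libraries thus lay above both KL libraries. The mean rose from 68.8 ± 1.16 to 90.7 ± 3.56 CPM (SD, n = 2 libraries each), a log2 fold change of 0.40 (SE 0.0941, 95% interval 0.20 to 0.59), or 1.32-fold (1.15 to 1.51). The adjusted p was 0.00854 by edgeR's quasi-likelihood test, adjusted by the Benjamini-Hochberg method over the whole table. The call held in 4 of 9 alternatives and lost with DESeq2 (adjusted p = 0.253) and limma (0.194), while the log2 fold change stayed between 0.36 and 0.43. It was also lost without KL replicate 2 (adjusted p = 0.0661 by edgeR). Without KLG4m/m replicate 3 or 4, edgeR called 0 listed peaks, so that no call could be kept, and the spread came from the KL pair alone with the lone KLG4m/m library assumed to vary like it. The log2 fold change of Gpx4 was then 0.43 and 0.36 (adjusted p = 0.307 and 0.337 by edgeR). At an unadjusted p under 0.05 in those fits, 2251 peaks were higher and 3235 lower without replicate 3, and 2228 higher and 2950 lower without replicate 4. With all 4 libraries DESeq2 called 33 peaks higher and 250 lower, and limma 0 and 0. Because the peak covers the start site and not the rox-flanked exons at the 3′ end, it does not check the deletion itself.

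Levels of marker genes moved between the same groups. The summed level of the 5 epithelial markers with a peak was 268.5 and 273.5 CPM in the KL libraries and 220.3 and 223.6 CPM in the KLG4m/m libraries, and Epcam (log2 fold change -0.82, adjusted p = 1.6e-06) and Cdh1 (-0.38, adjusted p = 0.00396) fell by edgeR's test on reads summed per gene. These were 2 of the 5, and Krt8 (-0.28, adjusted p = 0.241), Nkx2-1 (-0.13, adjusted p = 0.576) and Krt18 (0.07, adjusted p = 0.703) were not called. The summed level of the 4 leukocyte markers with a peak was 163.2 and 170.4 CPM in KL and 219.7 and 203.3 CPM in KLG4m/m. All 4 had log2 fold changes above 0, and 1 of the 4, Itgam, was called (0.56, adjusted p = 8.3e-05 by edgeR). Csf1r (0.28, adjusted p = 0.114) and Cd3e (0.22, adjusted p = 0.470) were not called. Nor was Ptprc, which encodes CD45 (0.22, means of 57.0 and 66.5 CPM, adjusted p = 0.163). In the same model 3 of the 4 had an unadjusted p under 0.05. Cd79a was the leukocyte marker without a listed peak. The endothelial sums were 103.2 and 122.4 against 104.0 and 123.7 CPM and the fibroblast sums 62.0 and 68.8 against 63.1 and 65.7 CPM, with no gene past edgeR's threshold in either list (Cdh5 had an unadjusted p of 0.0121 in that model). Their part in the Gpx4 result was not tested. In these sorted populations, more cells with the mark and more of the mark per cell cannot be told apart.

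Gpx4 was the 1 member of 5 past the threshold, beside 8.62% of all listed peaks. Of the peaks within 1 kb of a start site, 2.89% were called higher and 8.43% lower in KLG4m/m tumor cells. The groups did not overlap at Gpx3, Gpx4 and Gpx7, which is 3 of 5 members, beside 57.0% of peaks within 1 kb of a start site. The median log2 fold change of the members was 0.02, against 0.01 over all listed peaks and 0.00 over those within 1 kb of a start site.

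**Figure D2:**
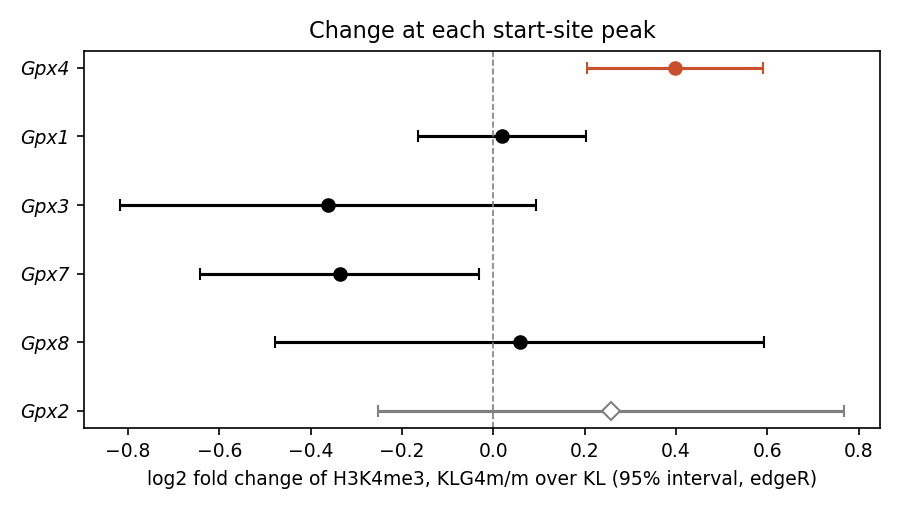
The log2 fold change of H3K4me3 in KLG4m/m over KL tumor cells (horizontal axis) for the peak of each gene. Bars are 95% intervals computed from the F statistic of edgeR's test. Points are red where the adjusted p is under 0.05, and an open diamond marks Gpx2, the other family gene with a listed peak. The interval of Gpx4 (0.20 to 0.59) lies above 0, that of Gpx7 (-0.64 to -0.03) below 0 without passing the adjusted threshold, and the other 4 include 0.

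Gpx1, the member with the highest level, showed no detectable difference. Its peak (chromosome 9, 108216205 to 108216605) spans 74 bp before to 326 bp after the start and held 366 and 318 reads in KL and 343 and 323 reads in KLG4m/m libraries. The KLG4m/m values fell between the KL values. The means were 98.4 ± 9.68 and 99.7 ± 0.379 CPM (SD, n = 2), and the 95% interval of the log2 fold change, -0.17 to 0.20, does not include the size measured at Gpx4 (0.02, adjusted p = 0.925 by edgeR).

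Gpx7 and Gpx3 had lower values in KLG4m/m libraries without passing the threshold. The Gpx7 peak (chromosome 4, 108263497 to 108263897), which begins 13 bp after the start, held 122 and 112 reads in KL and 87 and 91 reads in KLG4m/m libraries. The KLG4m/m libraries both lay below the KL libraries, with means of 33.7 ± 2.01 and 26.7 ± 2.08 CPM (SD, n = 2). The log2 fold change was -0.34 (SE 0.149, -0.64 to -0.03), with an adjusted p of 0.158 by edgeR and an unadjusted p in the same model of 0.0318. Of all listed peaks, 24.6% had an unadjusted p under 0.05, as did 2 of the 5 members.

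The Gpx3 peak (chromosome 11, 54793665 to 54794065) held 54 and 57 reads in KL and 52 and 31 reads in KLG4m/m libraries. The difference rested on the library KLG4m/m replicate 4, at 9.60 CPM, since replicate 3 (15.1 CPM) was close to the KL libraries (15.5 and 16.4 CPM). The log2 fold change was -0.36 (SE 0.222, -0.82 to 0.09, adjusted p = 0.323 by edgeR) and became -0.081 without KLG4m/m replicate 4 and -0.74 without KLG4m/m replicate 3.

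Gpx8 had the fewest reads of the members. Its peak (chromosome 13, 113182721 to 113183121) held 29 and 34 reads in KL and 28 and 35 reads in KLG4m/m libraries. The groups overlapped, and the log2 fold change was 0.06 with a 95% interval of -0.48 to 0.59, so that at this depth a change of the size measured at Gpx4 could not be seen or excluded.

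Of the family genes outside these 5, Gpx2, an epithelial selenoenzyme best known from the gut, had 1 listed peak (chromosome 12, 76841772 to 76842172). It held 30 and 44 reads in KL and 36 and 49 reads in KLG4m/m libraries (log2 fold change 0.26, adjusted p = 0.559 by edgeR). The groups overlapped. Gpx5 and Gpx6 had no listed peak.

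**Figure D3:**
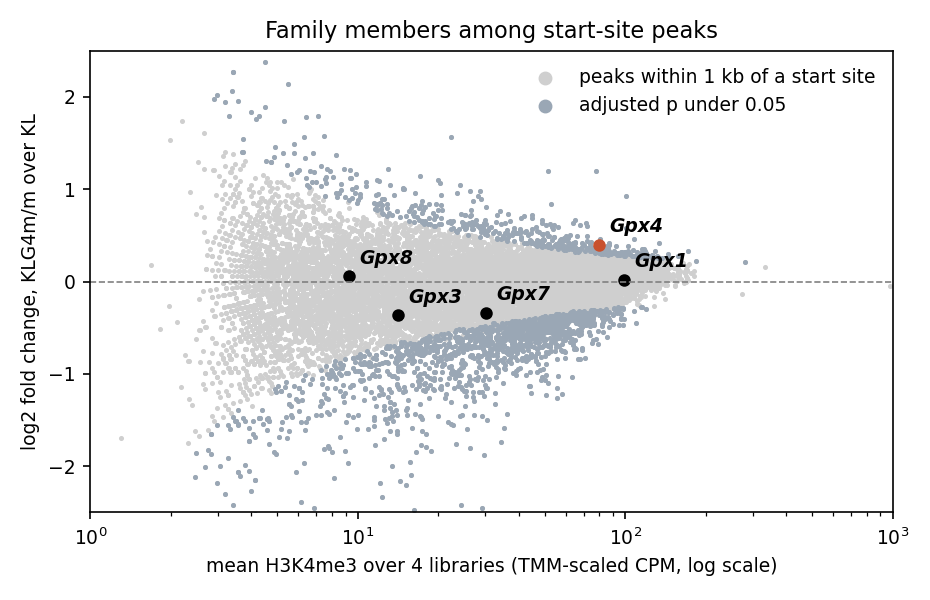
Mean H3K4me3 over the 4 libraries (horizontal, TMM-scaled CPM, log scale) against the log2 fold change in KLG4m/m over KL (vertical) for peaks within 1 kb of a start site, with those past the threshold in blue-grey and the 5 members marked. Gpx4 lies among the called peaks at high level and Gpx7, Gpx3 and Gpx8 lie among uncalled peaks of lower level, and 15 peaks fall outside the axes.

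The peaks around Gpx4 were examined because the allele was modified there and Stk11, deleted in both groups, is on the same stretch of chromosome 10. Within 100 kb of the Gpx4 peak lay 24 other listed peaks of 12 genes. Their log2 fold changes ran from -0.97 to 0.62 with a median of 0.16, and 19 of 24 were above 0. Over all listed peaks the median was 0.01 and 51.0% were above 0. By edgeR, 3 of the 24 rose and 1 fell, beside 3.10% and 5.52% of all listed peaks. The start-site peak nearest to Gpx4 on the higher-coordinate side, that of Sbno2, encoding a transcriptional co-regulator, rose by 0.46 (adjusted p = 0.00765), from 268 and 204 to 309 and 315 reads. A further Sbno2 peak rose by 0.58 (adjusted p = 0.0296) and a peak 145 bp from a start of Stk11 rose by 0.62 (adjusted p = 0.0014). These 3 lay on the side of Gpx4 where Stk11 lies, 21.9, 51.9 and 64.1 kb away. The other Stk11 start-site peak had a log2 fold change of 0.19 (adjusted p = 0.202). The peak that fell (-0.97, adjusted p = 0.00133) was at a start of Cbarp, 85.7 kb away. On the other side the nearest peaks belonged to Polr2e, a subunit of the RNA polymerases, with log2 fold changes of 0.11 (adjusted p = 0.606) at its start site and 0.45 (adjusted p = 0.0657) at an intergenic peak. The part of the cassette and of the changes at neighbouring peaks in the Gpx4 result was not tested.

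**Figure D4:**
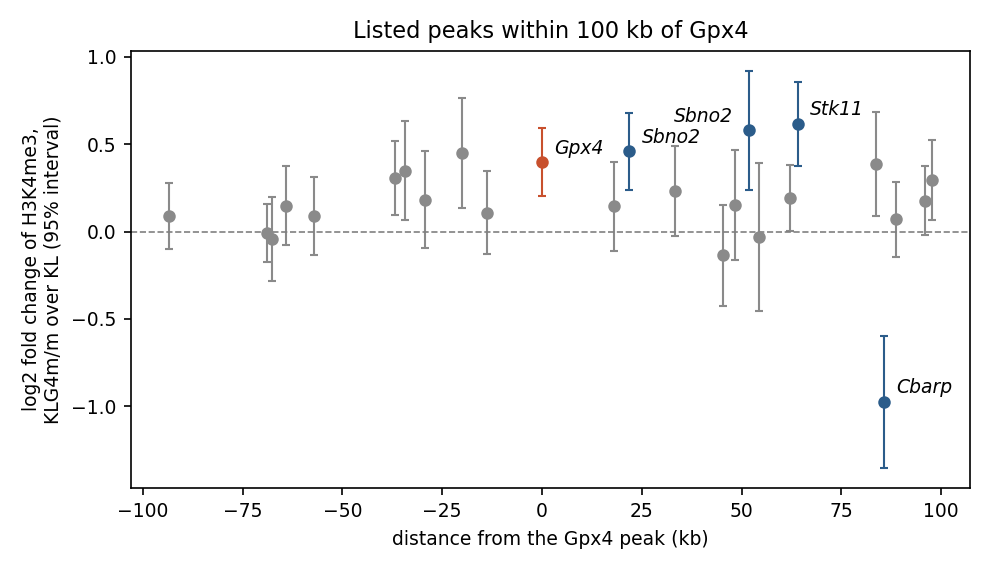
Distance from the Gpx4 peak in kb (horizontal) against the log2 fold change of H3K4me3 in KLG4m/m over KL with its 95% interval (vertical) for the listed peaks within 100 kb, with Gpx4 in red, other peaks past the threshold in blue and the rest in grey. Of the 24 other peaks 19 lie above 0, and the called ones are 2 of Sbno2, 1 of Stk11 and 1 of Cbarp.

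The neighbours of the other members were mostly not called. Of the 20 nearest listed peaks of other genes, 2 on either side of each member, 2 passed the threshold, namely that of Sbno2 beside Gpx4 and that of Hint1 beside Gpx3. Hint1, encoding a purine phosphoramidase, lay 36.2 kb from the Gpx3 peak and fell by 0.65 (adjusted p = 0.00184 by edgeR), from 174 and 194 to 115 and 110 reads. The peaks of Rhoa, Nicn1, Usp4 and Klhdc8b around Gpx1 had log2 fold changes from -0.29 to 0.19, and those of Shisal2a, Gm32297, Tut4 and Orc1 around Gpx7 from -0.22 to 0.16. Around Gpx8, 2 peaks of Cdc20b and those of 1700084D21Rik and Gzmk ran from -0.34 to 0.01.

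Genes that work with the family were read from the same fit on reads summed per gene, in which 5.38% of all genes were called higher and 9.63% lower. The sums take in every peak assigned to a gene, including those far from its start. In 4 lists, 39 genes had a listed peak and 5 were called, all lower in KLG4m/m tumor cells. Of the other peroxide-reducing enzymes and their carriers, 6 of 9 had a peak, with a median log2 fold change of 0.07, and none passed the threshold with edgeR, DESeq2 or limma or had an unadjusted p under 0.05 with edgeR (smallest adjusted p = 0.370, Prdx2, a peroxiredoxin, 0.13). Catalase (Cat) had means of 106.9 and 110.7 CPM. Prdx1, Prdx5 and Txn1 had no listed peak.

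Of the genes that supply glutathione, 8 of 9 had a peak, with a median of 0.05, and 1 was called. Gclc, the catalytic subunit of the enzyme of the rate-limiting step of glutathione synthesis, had 403 and 483 reads over 6 peaks in KL and 320 and 304 reads in KLG4m/m libraries. Both KLG4m/m libraries lay below both KL libraries, and Gclc fell by 0.45 on the log2 scale (adjusted p = 3.3e-05 by edgeR), or by 0.77 at the peak nearest its start site alone. Its partner Gclm had means of 59.2 and 50.6 CPM (adjusted p = 0.192), and the cystine transporter genes Slc7a11 and Slc3a2 had log2 fold changes of 0.09 and 0.14 (adjusted p = 0.730 and 0.165). Cth had no listed peak.

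Of the genes that make and insert selenocysteine or carry selenium to cells, 10 of 10 had a peak, with a median of 0.00, and 2 fell. Sephs1, a homolog of selenophosphate synthetase that lacks selenocysteine, had 72 and 84 reads in KL and 37 and 18 reads in KLG4m/m libraries. It fell by 1.45 (adjusted p = 4.4e-07 by edgeR), the groups did not overlap, and its paralog Sephs2, the selenophosphate synthetase itself, had means of 71.2 and 75.9 CPM (adjusted p = 0.591). Selenop, the selenium carrier of plasma and itself a selenoprotein, had 221 and 194 reads in KL and 159 and 145 reads in KLG4m/m libraries and fell by 0.39 (adjusted p = 0.0139 by edgeR). Secisbp2, Eefsec and Sepsecs, which read the selenocysteine codon or load its tRNA, were not called (log2 fold changes -0.16, -0.16 and 0.11).

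Of the other selenoproteins, 15 of 18 had a peak, with a median of 0.03, and the 2 called lower were the 2 with the lowest level of the list. Dio3, the deiodinase that inactivates thyroid hormone, had 25 and 22 reads in KL and 6 and 4 reads in KLG4m/m libraries and fell by 2.15 (adjusted p = 2.67e-04 by edgeR). The 1 peak assigned to Selenov, a selenoprotein known from testis, lies in an exon of another gene, Dll3, at a distance of -3479 bp from the start of Selenov, so that its reads cannot be assigned to Selenov alone. It had 31 and 25 against 13 and 11 reads and fell by 1.16 (adjusted p = 0.0145 by edgeR). The thioredoxin reductases Txnrd1, Txnrd2 and Txnrd3 had log2 fold changes of 0.03, 0.19 and -0.14, none past the threshold. Dio1, Dio2 and Selenoi had no listed peak. These 5 calls differed in how well they held. Selenop lost its call with DESeq2 (adjusted p = 0.307), limma (0.141) and without KL replicate 1 (-0.29, adjusted p = 0.244 by edgeR), and Selenov with DESeq2 (0.316), limma (0.0571) and without KL replicate 1 (-0.99, adjusted p = 0.152 by edgeR). Gclc lost it with limma (0.135) and without KL replicate 2 (-0.31, adjusted p = 0.0646 by edgeR), and Sephs1 with limma (0.0855), while Dio3 kept it with limma (0.0480) and had no adjusted p with DESeq2. Without KLG4m/m replicate 3 or 4 edgeR called 0 of the 20871 genes, although 1643 and 1572 genes higher and 2543 and 2255 lower had an unadjusted p under 0.05, so no call could be kept there. The log2 fold changes were then -0.44 and -0.46 for Gclc, -0.42 and -0.37 for Selenop, -2.42 and -1.94 for Dio3 and -1.24 and -1.09 for the Selenov peak. Sephs1 moved the most, to -2.01 without replicate 3 and -1.06 without replicate 4.

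The genes most like each member over the 4 libraries were found by the Euclidean distance between log2 levels centred on each gene's mean, among genes within 2-fold of the member's level. The nearest to Gpx4 were Il12a (distance 0.0146) and Spi1 (0.0214) of 9768 genes compared, and to Gpx1 Tra2b (0.00765) and Anapc7 (0.0152) of 8560. The nearest to Gpx7 were Gm41591 (0.0280) and Sec14l2 (0.0347) of 7509. Zfp711 (0.0567) and Lrrc73 (0.0617) of 5780 were nearest to Gpx3, and Gm29811 (0.0250) and Gm24440 (0.0390) of 5513 to Gpx8. With 4 points a gene, and many genes to choose from, close matches are found for any gene, so these distances are a description.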

How the data were processed

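H3K4me3 CUT&Tag libraries of CD45-CD31-EpCAM+ lung tumor cells were compared, 2 of KL and 2 of KLG4m/m mice, grouped by the labels. A further allele that both groups carry is not reported here. The protocol spells the antibody's target as H4K4me3. The series also has H3K27ac libraries, not analysed here. Per the submitters' processing notes and methods, the authors used Trim Galore 0.6.10, BWA 0.7.15, Picard 2.17.3, MACS2 2.2.7.1 and HOMER 4.11.1. They removed mitochondrial, low-quality and duplicate reads, so the counts are of distinct fragments. The annotation columns carry names that ChIPseeker gives. The methods name an Ensembl 94 mouse genome for mapping, but the deposited coordinates differ from its assembly, GRCm38, and the build they use is not stated. Whether peaks were called on pooled libraries is not given in the sources used here.

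The deposited table holds, for each peak and library, whole read counts without normalization, the authors' CPM (each library's listed peaks sum to 1000000) and the distance to a start site. It also holds the authors' own comparison (log2 fold change, average log2 CPM, F, p and adjusted p), which was not used. Since values are relative to reads in peaks, a uniform gain or loss across all peaks cannot be seen.

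Counts were tested with edgeR 4.0.16 (quasi-likelihood, TMM, no filter, no covariate, two-sided, Benjamini-Hochberg over 35486 peaks or, for reads summed per gene, 20871 genes, threshold 0.05; R 4.3.3). The alternatives were size factors of DESeq2 (RLE), scaling by total reads, DESeq2 1.42.0, limma 3.58.1 on log2(CPM + 1), a mean of at least 10 CPM, leaving out each library, and, for genes, only the peak closest to a start. The common dispersion was 0.00133. Counts were also simulated for the peak comparison, with this common dispersion at every peak. Of 200 peaks changed 2-fold, drawn only from those above a minimum mean count, 79.0% were recovered among 35486, with 4 false calls. Changes at peaks with few reads, spreads that differ between peaks and changes as small as that at Gpx4 were not simulated. With 2 libraries a group, an exact permutation test of 1 peak cannot go below p = 0.333 and none was run. Levels are mean ± SD of TMM-scaled CPM. The planned test of differences between peaks of 1 gene was not run, since each member has 1 peak. Proteins and genome sequence were not used here. The members and lists were chosen with earlier results of these data known. The text names all members, the other family genes, Stk11, the neighbours, list genes past the threshold (or the smallest p where none passed), and the 2 nearest genes in pattern. The marker genes, Sephs2, Gclm, Cat, Slc7a11, Slc3a2, Secisbp2, Eefsec, Sepsecs, the thioredoxin reductases, Cbarp and Dll3 were named in addition, after their values were seen.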

Additional observations from a re-analysis of the deposited data

How the results depend on the processing

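The Gpx4 difference kept its direction in 9 of 9 alternatives. It was no longer past the threshold with DESeq2 (log2 fold change 0.40) or limma (0.38), and ran from 0.36 to 0.43 when libraries were left out (adjusted p 0.0300 to 0.337). Each of these genes has 1 listed peak, so its values summed per gene rest on the same reads and are not a separate check. Summed per gene, Gpx4 lost its call with DESeq2 and limma, and without either KLG4m/m library, where no gene was called. Gpx1, Gpx3, Gpx7 and Gpx8 were not called under any alternative. Gpx1 changed sign with the filter of 10 CPM (-0.00124) and without KL replicate 2, with a range of -0.078 to 0.12 over the libraries left out. Gpx3 ran from -0.74 to -0.081, Gpx7 from -0.41 to -0.26 and Gpx8 from -0.16 to 0.25. The filter removed the Gpx8 peak, which then had no value. Gpx2 changed sign without KLG4m/m replicate 4, with a range of -0.026 to 0.56. Summed per gene, the ranges without a library were -0.073 to 0.13 for Gpx1, -0.027 to 0.56 for Gpx2 and -0.16 to 0.25 for Gpx8, which all include a change of sign.

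The tools differed more than the scalings. All listed peaks gave 1099 higher and 1960 lower calls with edgeR, 33 and 250 with DESeq2, and 0 and 0 with limma, where 2894 and 4436 had an unadjusted p under 0.05. Genes gave 1122 and 2010, 122 and 337 with DESeq2, and 36 and 83 with limma; the peak nearest the start site gave 733 higher. Without 1 library, edgeR's counts ran from 0 to 702 higher and 0 to 1459 lower for peaks, and from 0 to 649 and 0 to 1305 for genes. The 0 came without KLG4m/m replicate 3 or 4, where 2251 and 2228 peaks higher and 3235 and 2950 lower had an unadjusted p under 0.05, with fewer libraries by construction. The cause of the differences between tools was not tested.

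Of the list counts, glutathione supply fell from 1 to 0 with limma and ran from 0 to 1 without a library. Selenocysteine synthesis went from 2 to 1 with DESeq2 and 0 with limma (0 to 2 without a library), and the other selenoproteins from 2 to 0 with DESeq2, where Dio3 had no adjusted p, 1 with limma and 0 with the filter (0 to 2 without a library). The filter removed Dio3 and Selenov, so that their calls could not be kept there. The alternatives of the lists other than the scalings and DESeq2 were added after seeing the data. The Stk11 peak was past the threshold in 5 of 9 alternatives (adjusted p = 0.0507 with DESeq2). No paired analysis was possible because the replicate numbers of the groups, 1 and 2 against 3 and 4, do not overlap. Depth limits Gpx8 and Gpx3, with 28 to 57 reads a library.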
